A study of Rattus norvegicus with 18 samples.

Results

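The interferon response genes examined here are 34 genes that interferons induce or that relay the interferon signal. They were found by their names in a table of 28909 genes, where all 34 were present, and all 34 also passed the filter on low values that left 15204 genes for testing. The genes are spelled as in the table. They were measured in ventricular cardiomyocytes of wild-type SD rats taken 1 day after birth, cultured after a pre-plating step that removes faster-attaching cells. The cells received the solvent DMSO or 25 µM blebbistatin, an inhibitor of the ATPase of myosin II motors, for 0.5 h in low-serum medium, and total RNA was sequenced in 3 libraries per group. The treatment protocol gives this dose, while the design text also gives another one. Of the 18 samples of the study, the 12 chromatin and input samples are not analysed here. The comparison asks which of these transcripts had another level once myosin II had been blocked briefly. Whether the 3 libraries of a group are separate cultures is not given in the labels, and the p-values cover the spread between libraries only.

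Cells sense viral RNA with helicases such as RIG-I and MDA5, which lead through interferon regulatory factors (IRFs) to the release of interferons. Type I interferons bind the receptor pair IFNAR1 and IFNAR2, whose kinases JAK1 and TYK2 phosphorylate STAT2. STAT2 and IRF9 are subunits of the complex ISGF3, which binds the interferon-stimulated response element (ISRE) of antiviral genes. Type II interferon acts on the gamma-activated site (GAS), and IRF1 is one of its classical targets. Cardiomyocytes divide little after birth, and their own antiviral response limits viral damage to the heart muscle.

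Many of the promoter sequences show an element by which these genes are known. RefSeq windows of the rat build GRCr8, from 250 bases before to 50 bases after the annotated start, were held for 26 of the 34 genes. Of the names, 33 matched a RefSeq symbol and DDX58 matched a synonym. DDX58, DHX58, MX2, OAS2, IFIT1, IFIT2, ISG15 and USP18 had no window in the table. The windows were searched for the ISRE letters GAAANNGAAA on both strands and for the GAS letters TTCNNNGAA, which read alike on both strands. The ISRE letters were present in 17 of the 26 windows (65.4%) and in 1312 of all 33469 windows of the table (3.92%). The GAS letters were present in 7 of the 26 (26.9%) and in 2970 of all windows (8.87%). The windows of IRF3, STAT2, MX1, OASL, HERC6, PARP9 and PSMB9 held neither set of letters. A match is a description of the letters and not a measured binding site, and a missing match covers only the window.

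The promoters of 4 genes are shown by the 250 bases before the start, 5′ to 3′ along the gene, with ISRE and GAS matches in capitals. OAS1A, a 2′-5′-oligoadenylate synthetase, was chosen because its window holds both elements and its level differed most among the genes with an unadjusted p under 0.05 described later. Its window at chr12:41330216-41330465 on the plus strand has a GAS match 199 bases before the start and overlapping ISRE matches at 41 and 35 bases. IFI44 at chr2:243303841-243304090 on the minus strand has an ISRE match 26 bases before the start. IRF1 at chr10:38417685-38417934 on the plus strand has no ISRE match and a GAS match at 142 bases. IRF9 at chr15:33065586-33065835 on the plus strand has a GAS match at 99 bases and no ISRE match.
OAS1A: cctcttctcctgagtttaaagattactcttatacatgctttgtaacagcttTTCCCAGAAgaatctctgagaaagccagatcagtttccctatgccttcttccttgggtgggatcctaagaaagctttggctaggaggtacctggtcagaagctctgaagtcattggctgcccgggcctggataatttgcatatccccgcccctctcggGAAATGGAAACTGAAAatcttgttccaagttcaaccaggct
IFI44: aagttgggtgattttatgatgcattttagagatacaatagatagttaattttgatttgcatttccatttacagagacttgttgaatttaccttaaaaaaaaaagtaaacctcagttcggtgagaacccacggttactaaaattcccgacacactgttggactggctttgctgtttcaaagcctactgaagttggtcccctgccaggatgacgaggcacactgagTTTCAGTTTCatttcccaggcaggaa
IRF1: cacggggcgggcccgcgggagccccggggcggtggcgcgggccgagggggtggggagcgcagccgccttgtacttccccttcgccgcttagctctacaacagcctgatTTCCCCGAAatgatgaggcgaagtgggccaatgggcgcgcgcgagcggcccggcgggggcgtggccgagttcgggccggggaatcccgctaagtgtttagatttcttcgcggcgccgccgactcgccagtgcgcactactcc
IRF9: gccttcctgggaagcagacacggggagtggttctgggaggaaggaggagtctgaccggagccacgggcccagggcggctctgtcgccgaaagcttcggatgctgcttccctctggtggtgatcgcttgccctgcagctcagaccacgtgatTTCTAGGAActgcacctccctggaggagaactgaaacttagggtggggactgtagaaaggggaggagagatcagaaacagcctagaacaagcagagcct

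The ISRE matches of other genes are shown as 22-base windows with the match in capitals, written on the strand that reads GAAA, because several genes share the same core of 10 bases. The core GAAACTGAAA occurred in 6 of the 26 windows, those of OAS1A, IFI44, IFIT3, ISG20, BST2 and DTX3L, and in 0.308% of all windows. Its distance before the start was 44 bases in IFIT3, 92 in ISG20 and 125 in BST2, while in DTX3L it lay 11 bases after the start.
IFIT3: aaactaGAAACTGAAAcagact
ISG20: gaaccaGAAACTGAAActaaaa
BST2: gaaaatGAAACTGAAAggtggc
DTX3L: ggaaacGAAACTGAAActttgc
The core GAAAATGAAA occurred in 4 windows (0.314% of all windows), those of IRF7, RSAD2, BST2 and IFI44L.
IRF7: tctcggGAAAATGAAAcctaaa
RSAD2: ttttctGAAAATGAAAgttgaa
BST2: ttccagGAAAATGAAActgaaa
IFI44L: agtgagGAAAATGAAAgtaaag
The core GAAAGTGAAA occurred in 3 windows (0.287% of all windows), those of GBP2, PARP14 and CXCL10.
GBP2: gacaatGAAAGTGAAActaaaa
PARP14: ggaaatGAAAGTGAAAgaagta
CXCL10: gctttgGAAAGTGAAActtaac
IFIH1, EIF2AK2, TAP1, PSMB8 and IFI27 carried other ISRE letters, at 59, 16, 121 and 4 bases before the start for the first 4 and at 169 and 84 bases for IFI27. GAS matches outside the printed promoters lay in BST2, PARP14, PSMB8 and IFI44L.

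**Figure D1:**
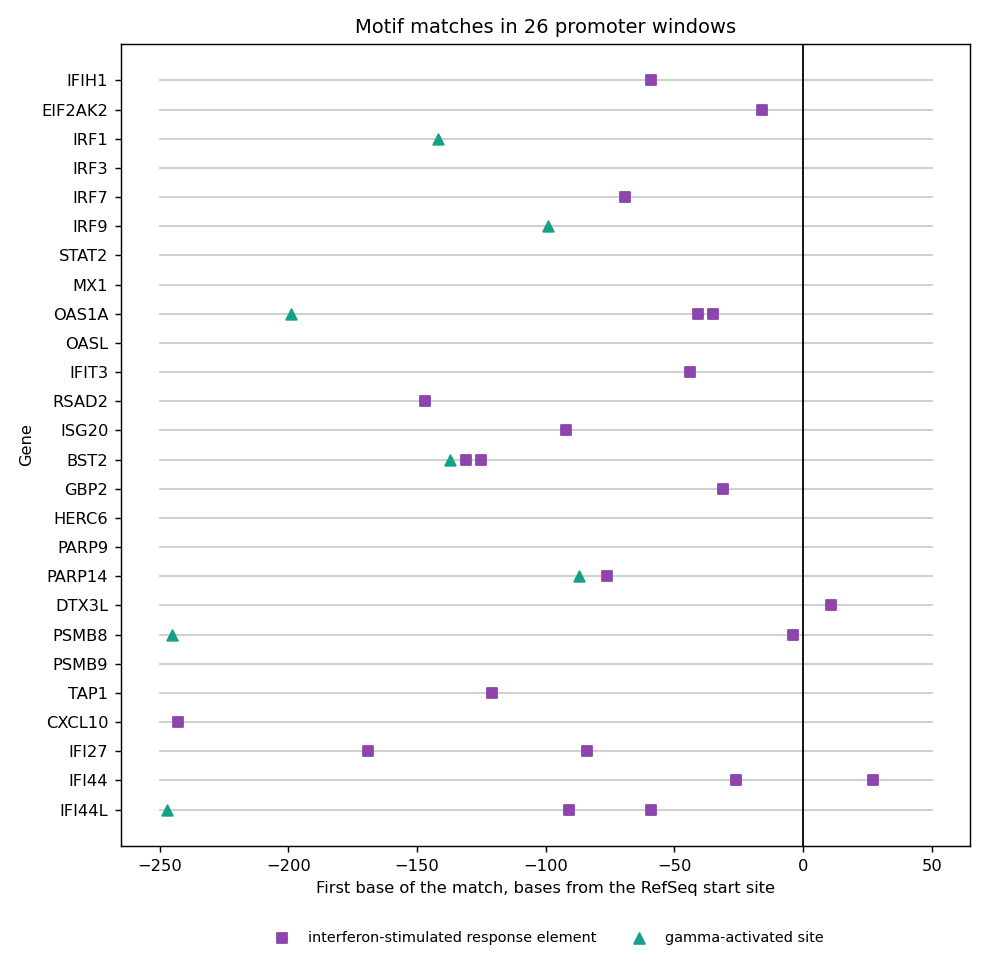
Positions of ISRE and GAS matches in the 26 promoter windows, with the distance from the annotated start in bases on the horizontal axis and 1 gene per line. Most ISRE matches lie within the 150 bases before the start, and 17 of the 26 windows hold at least 1.

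Log2 differences are also given without DMSO replicate 1, which differed from the remaining libraries. Its deposited level was the lowest of the 6 libraries for 22 of the 34 interferon response genes (64.7%), against 43% of all genes tested. It was the highest for 3, DDX58, PARP14 and IFI44L, against 26.4% of all genes. Cardiomyocyte markers were present throughout, with 14 genes above 0 in every library and a summed level of 31460 to 33720 CPM (counts scaled by the authors to the same total in each library). The mean log2 level of the cardiomyocyte markers was also lowest in DMSO replicate 1, at 9.17 against 9.43 to 9.68, with 8 of the 14 lowest there. The list was split, since 5 others were highest in that library, as was the summed level. Fibroblast markers were present too, with 12 genes at a summed 34000 to 39580 CPM. Markers of macrophages and other leukocytes, cells that also express many interferon response genes, moved with this library: the 16 markers in the table summed to 140 CPM in DMSO replicate 1, 222.8 and 248.9 CPM in DMSO replicates 2 and 3, and 230.3 to 255.4 CPM after blebbistatin. Of the 14 that could be tested, 11 were lowest in DMSO replicate 1, with the leukocyte gene PTPRC at 11.2 CPM there and 12.5 to 14.1 CPM elsewhere, and the T-cell gene CD3E listed at 0 in all 6. The 29 cytosolic ribosomal protein genes were all lowest in DMSO replicate 1, with a mean log2 level of 7.51 there against 8.35 to 8.76. The mean log2 level of the fibroblast markers was 8.53 in DMSO replicate 1 and 8.44 to 8.59 in the rest. The 6 red blood cell genes in the table summed to 72.0 CPM in DMSO replicate 1 and 26.3 to 31.1 CPM in the rest. The part of these genes in the interferon results was not tested, and fewer cells of a type and less RNA per cell cannot be told apart in bulk RNA.

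**Figure D2:**
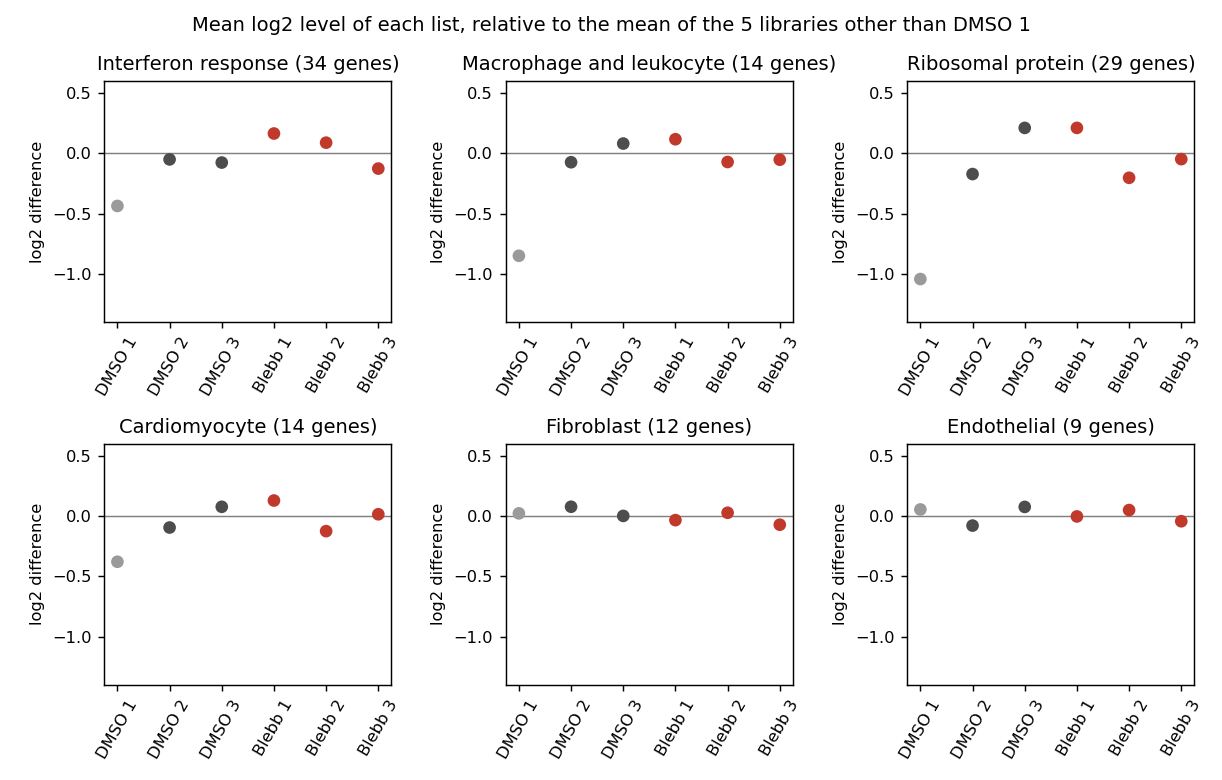
Mean log2 level of the interferon response genes and of 5 marker or quality lists in each library, relative to the mean of the 5 libraries other than DMSO replicate 1. The means of the interferon, macrophage, ribosomal and cardiomyocyte lists are lowest in DMSO replicate 1, while that of the fibroblast list is not. Of the 14 cardiomyocyte genes, 8 are lowest and 5 highest there in CPM as deposited.

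None of the 34 interferon response genes passed the test after blebbistatin. Limma called 0 of 34 at a Benjamini-Hochberg adjusted p under 0.05 (smallest adjusted p = 0.991), beside 3 of all 15204 genes (0.0197%), 1 higher (0.00658%) and 2 lower (0.0132%). At an unadjusted p under 0.05 it counted 4 members as higher, OAS1A, MX2, IRF1 and IFI44, where 0.73% of all genes were, and 0 members as lower, where 0.776% of all genes were. The log2 fold change was positive for 27 of the 34 (79.4%), against 50.4% of all genes, and ranged from -0.47 for RSAD2 to 0.98 for USP18. Its median was 0.24, against 0.0025 over all genes. All 3 blebbistatin libraries lay above all 3 DMSO libraries for 10 of the 34 genes (29.4%), where 3.62% of all genes did: DHX58, IRF1, IRF9, STAT2, MX1, MX2, OAS1A, IFIT1, PARP9 and IFI44. The groups separated the other way for 0 of 34 and for 2.48% of all genes. These counts use CPM as deposited. After TMM scaling the count was 9 of 34 (3.17% of all genes), without MX1 and IFIT1 and with IRF7.

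Without DMSO replicate 1 the median log2 fold change of the 34 genes was 0.13, with 26 positive (76.5%, against 49.6% of all genes), and limma called 0 of 34 and 6 of all genes (0.0395%). At an unadjusted p under 0.05 it then counted MX1, MX2 and OAS1A as higher, where 0.73% of all genes were, and 0 members as lower (0.848%). The 10 genes whose groups separated with all 6 libraries must also separate with fewer. DDX58 was added to them, 11 of 34 (6.02% of all genes), and CXCL10 separated the other way (6.15%). The summed level of the 34 genes was 548.1, 712.7 and 737.2 CPM in DMSO replicates 1, 2 and 3, and 865.8, 763.5 and 751.4 CPM in blebbistatin replicates 1, 2 and 3. Every blebbistatin library thus had a higher sum than every DMSO library. This order rests on IFI27, at 63.8 to 201.5 CPM with DMSO and 159.4 to 234.5 CPM with blebbistatin, whose own groups overlapped. With IFI27 left out, blebbistatin replicate 3 had a lower sum than DMSO replicate 2. The mean log2 level, in which low genes weigh as much as high ones, overlapped between the groups, at 2.86, 3.24 and 3.22 in the DMSO libraries and 3.46, 3.38 and 3.17 in the blebbistatin libraries.

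The treated libraries did not stand together. Blebbistatin replicate 1 had the highest level of the 6 libraries for 16 of the 34 genes (19.8% of all genes), replicate 2 for 6 (12.8%) and replicate 3 for 0 (12.7%). Against DMSO replicate 2, blebbistatin replicates 1 and 2 were higher for 24 and 26 of the 34, with median log2 differences of 0.23 and 0.14. Blebbistatin replicate 3 was higher than DMSO replicate 2 for 16 of the 34, with a median difference of -0.0037, and higher than DMSO replicate 3 for 19. Each blebbistatin library was higher than DMSO replicate 1 for 23 to 28 of the 34 genes.

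**Figure D3:**
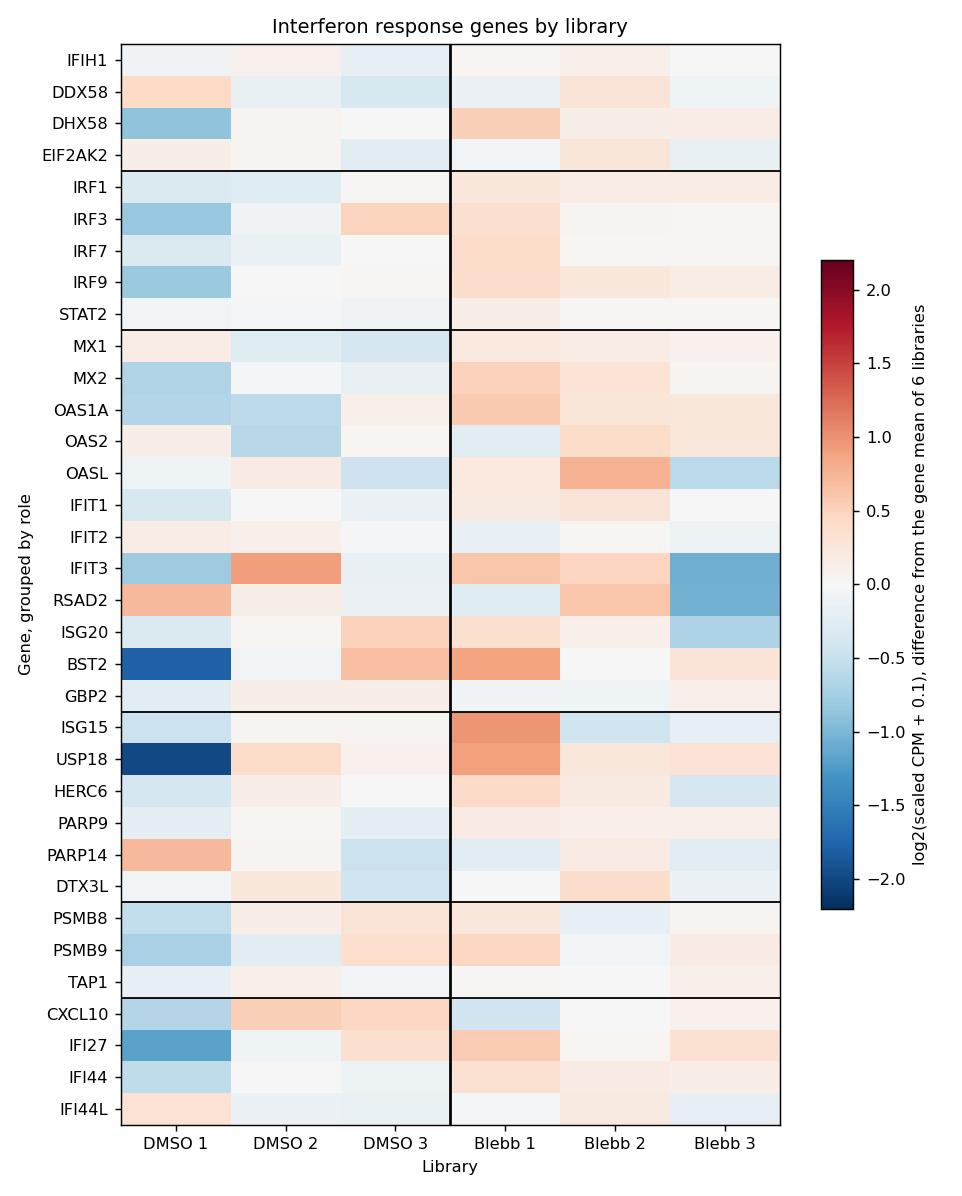
Level of each of the 34 genes in each of the 6 libraries, as the difference in log2 units from that gene's mean, with genes grouped by role. In CPM as deposited, DMSO replicate 1 is the lowest library for 22 genes and the highest for DDX58, PARP14 and IFI44L. The values drawn are TMM-scaled, so some genes, STAT2 among them, rank the libraries otherwise.

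**Figure D4:**
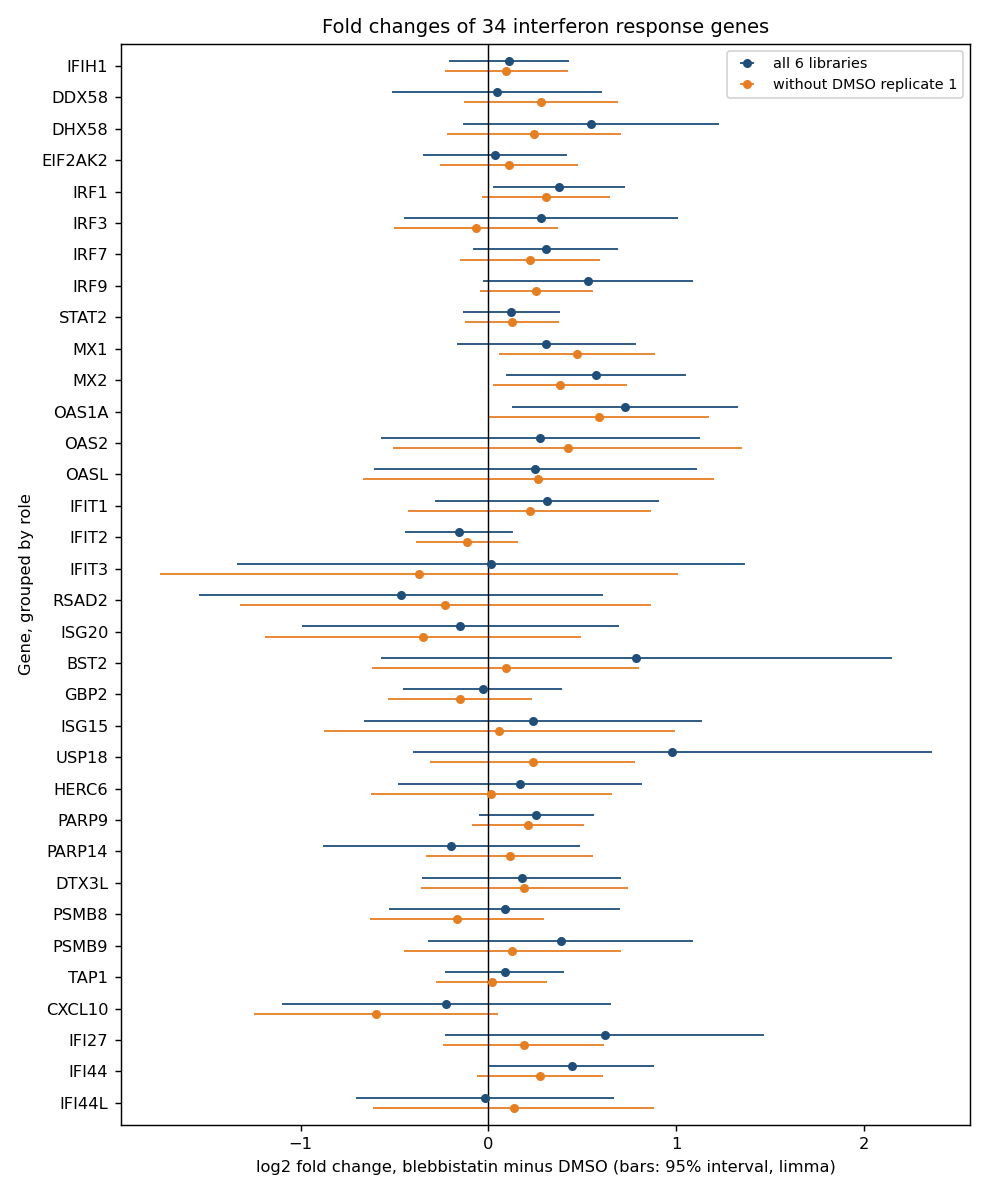
Log2 fold change of each gene, blebbistatin minus DMSO, with its 95% interval, for all 6 libraries and without DMSO replicate 1. Most points lie to the right of 0 and most intervals include 0.

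The transcription factors were all positive, 5 of 5, and the median of their log2 fold changes was 0.31. All 5 were lowest in DMSO replicate 1 in CPM as deposited, but STAT2 was not after TMM scaling. Without that library the median was 0.22 and 4 of 5 were positive. IRF1, an activator of interferon and antigen presentation genes, was at 11.3, 12.9 and 15.9 CPM in DMSO replicates 1, 2 and 3 and at 18.6, 17.0 and 17.5 CPM in blebbistatin replicates 1, 2 and 3. All its treated libraries lay above the DMSO libraries. The TMM-scaled means were 13.5 ± 1.81 and 17.4 ± 0.497 CPM (SD, n = 3 each), a log2 difference of 0.38 ± 0.15 (SE, 95% interval 0.023 to 0.73), and 0.31 ± 0.15 without DMSO replicate 1. IRF9, the DNA-binding subunit of ISGF3, was at 11.2, 21.4 and 22.3 CPM with DMSO and 28.9, 25.2 and 24.2 CPM with blebbistatin. Its groups did not overlap. The log2 difference was 0.53 ± 0.24, and 0.26 ± 0.13 without DMSO replicate 1, its lowest library. STAT2, the ISGF3 subunit that activates transcription, was at 62.4, 68.8 and 67.5 CPM with DMSO and 79.5, 70.9 and 72.4 CPM with blebbistatin. Its groups were apart by little, and the log2 difference was 0.12 ± 0.11, and 0.13 ± 0.11 without DMSO replicate 1.

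The groups of the remaining factors overlapped in CPM as deposited. IRF7, which amplifies the type I interferon response, was at 16.3, 20.1 and 22.6 CPM with DMSO and 30.0, 22.3 and 22.7 CPM with blebbistatin, a log2 difference of 0.31 ± 0.17, and 0.22 ± 0.16 without DMSO replicate 1. Its treated values were near DMSO replicate 3 except in blebbistatin replicate 1. IRF3, the factor that viral sensing activates directly, ran from 16.5 to 45.8 CPM within the DMSO group and from 32.8 to 41.7 CPM after blebbistatin. Its log2 difference changed sign, from 0.28 ± 0.31 to -0.067 ± 0.19 without DMSO replicate 1. IRF3 overlaps BCL2L12, EIF2AK2, IFIT1 and CXCL10 also overlap other protein-coding genes, and without the strand setting such reads cannot be told apart.

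None of the 4 sensors of viral RNA had an unadjusted p under 0.05, with or without DMSO replicate 1. All 4 had a positive log2 difference, with a median of 0.079, and of 0.18 without DMSO replicate 1. DHX58 encodes LGP2, a regulator of the other helicases. It was at 2.595, 5.55 and 5.33 CPM with DMSO and 7.81, 5.69 and 6.00 CPM with blebbistatin. The groups did not overlap, with the closest libraries 5.55 and 5.69 CPM, and the log2 difference was 0.55 ± 0.29, or 0.24 ± 0.20 without DMSO replicate 1. DDX58, which encodes RIG-I, was at 17.4, 12.5 and 11.0 CPM with DMSO and 13.0, 16.9 and 13.2 CPM with blebbistatin. DMSO replicate 1 was its highest library, so that the treated libraries lay above the DMSO libraries only without it, with a log2 difference of 0.28 ± 0.18, against 0.047 ± 0.24 with it. IFIH1, which encodes MDA5, and EIF2AK2, the kinase PKR, had log2 differences of 0.11 ± 0.14 and 0.035 ± 0.16, and of 0.097 ± 0.14 and 0.11 ± 0.16 without DMSO replicate 1. Their groups overlapped, at 15.7 to 19.4 CPM with DMSO and 18.4 to 19.3 CPM with blebbistatin for IFIH1, and at 57.7 to 70.2 and 60.3 to 80.1 CPM for EIF2AK2.

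Of the 12 antiviral effectors 8 were positive, with a median log2 difference of 0.26, and 7 were positive without DMSO replicate 1, with a median of 0.16. OAS1A, whose product makes the second messenger that activates RNase L, was at 2.695, 3.10 and 5.10 CPM with DMSO and 7.10, 5.55 and 5.55 CPM with blebbistatin. All its treated libraries lay above the DMSO libraries, with scaled means of 3.65 ± 1.16 and 5.97 ± 0.795 CPM (SD, n = 3 each). The log2 difference was 0.73 ± 0.26 (95% interval 0.12 to 1.33), and 0.59 ± 0.26 without DMSO replicate 1. MX2, an interferon-induced dynamin-like GTPase, was at 17.0, 28.95 and 26.5 CPM with DMSO and 42.5, 35.8 and 30.8 CPM with blebbistatin. Its groups did not overlap, and the log2 difference was 0.57 ± 0.20 (95% interval 0.096 to 1.05), and 0.38 ± 0.15 without DMSO replicate 1.

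MX1, the related GTPase that blocks influenza and other RNA viruses, was at 5.82, 4.64 and 4.39 CPM with DMSO and 6.63, 6.20 and 6.05 CPM with blebbistatin. Its treated libraries were close to each other and above all DMSO libraries as deposited, of which replicate 1 was the highest. After TMM scaling DMSO replicate 1 lay among them. The log2 difference was 0.31 ± 0.20, and 0.47 ± 0.18 (95% interval 0.056 to 0.89) without DMSO replicate 1. IFIT1, which binds viral RNA lacking the host's cap methylation, was at 1.025, 1.46 and 1.33 CPM with DMSO and 1.70, 1.755 and 1.46 CPM with blebbistatin. The groups met at 1.46 CPM, apart only in later digits as deposited and overlapping after scaling, with a log2 difference of 0.31 ± 0.26, and 0.22 ± 0.28 without DMSO replicate 1. The related IFIT2 was at 61.55 to 68.4 CPM with DMSO and 57.4 to 63.4 CPM with blebbistatin, a log2 difference of -0.15 ± 0.12, and -0.11 ± 0.12 without DMSO replicate 1. IFIT3 ran from 1.12 to 4.22 CPM with DMSO and 0.989 to 3.44 CPM with blebbistatin, and its log2 difference turned from 0.014 ± 0.58 to -0.37 ± 0.58 without DMSO replicate 1.

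The other effectors overlapped between the groups. BST2, or tetherin, which holds budding virus at the cell surface, was at 2.17, 8.05 and 13.4 CPM with DMSO and 15.75, 8.35 and 10.3 CPM with blebbistatin. Its log2 difference of 0.79 ± 0.58 was 0.093 ± 0.30 without DMSO replicate 1, its lowest library. RSAD2, which encodes viperin, was at 2.31, 1.66 and 1.38 CPM with DMSO and 1.26, 2.32 and 0.681 CPM with blebbistatin, the most negative log2 difference of the 34 at -0.47 ± 0.46. Without DMSO replicate 1 it was -0.23 ± 0.48, and CXCL10 was then the most negative. The highest values of RSAD2 in both groups were nearly equal. OAS2 and OASL, further oligoadenylate synthetase family members, had log2 differences of 0.28 ± 0.36 and 0.25 ± 0.37, and of 0.42 ± 0.40 and 0.26 ± 0.40 without DMSO replicate 1. The exonuclease gene ISG20 and the guanylate-binding protein gene GBP2 had log2 differences of -0.15 ± 0.36 and -0.030 ± 0.18, and of -0.35 ± 0.37 and -0.15 ± 0.17 without DMSO replicate 1.

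Genes of the ISG15 system and of ADP-ribosylation were positive in 5 of 6 cases, with a median log2 difference of 0.21, and in 6 of 6 without DMSO replicate 1, with a median of 0.15. USP18, which removes ISG15 from proteins and dampens signalling at the interferon receptor, was at 1.49, 8.94 and 7.26 CPM with DMSO and 12.9, 7.89 and 8.37 CPM with blebbistatin. It had the most positive log2 difference of the 34, 0.98 ± 0.59, which was 0.24 ± 0.24 without DMSO replicate 1. The other 5 libraries overlapped, since DMSO replicate 2 lay above blebbistatin replicates 2 and 3. ISG15, the ubiquitin-like modifier, was at 2.89, 4.63 and 4.68 CPM with DMSO and 8.97, 3.21 and 3.91 CPM with blebbistatin. Only blebbistatin replicate 1 lay above the DMSO libraries, and the log2 difference of 0.24 ± 0.39 was 0.059 ± 0.40 without DMSO replicate 1 and -0.19 without blebbistatin replicate 1. HERC6, an E3 ligase for ISG15 in mice, had a log2 difference of 0.17 ± 0.28, and 0.017 ± 0.28 without DMSO replicate 1.

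PARP9, which forms a complex with the ubiquitin ligase DTX3L, was at 23.3, 30.8 and 25.9 CPM with DMSO and 34.2, 31.5 and 32.1 CPM with blebbistatin. Its groups did not overlap, with a log2 difference of 0.26 ± 0.13, and 0.21 ± 0.13 without DMSO replicate 1. PARP9 and DTX3L overlap in the annotation, and without the strand setting their reads cannot be told apart. DTX3L had a log2 difference of 0.18 ± 0.23 with overlapping groups, and 0.19 ± 0.24 without DMSO replicate 1. PARP14, a mono-ADP-ribosyltransferase next to DTX3L, was at 79.7, 54.8 and 38.4 CPM with DMSO and 45.6, 58.9 and 45.1 CPM with blebbistatin. DMSO replicate 1 was its highest library, and the log2 difference turned from -0.20 ± 0.29 to 0.11 ± 0.19 without it.

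The antigen processing genes, the immunoproteasome subunits PSMB8 and PSMB9 and the peptide transporter subunit TAP1, were all lowest in DMSO replicate 1. PSMB9 was at 3.24, 4.95 and 7.69 CPM with DMSO and 8.23, 5.50 and 6.71 CPM with blebbistatin, a log2 difference of 0.39 ± 0.30, and 0.13 ± 0.25 without DMSO replicate 1. PSMB8 was at 3.41 to 6.72 CPM with DMSO and 4.775 to 6.63 CPM with blebbistatin, and its log2 difference turned from 0.086 ± 0.26 to -0.17 ± 0.20 without that library. TAP1 was at 18.8 to 25.3 CPM with DMSO and 22.9 to 25.2 CPM with blebbistatin, a log2 difference of 0.087 ± 0.14, and 0.017 ± 0.13 without DMSO replicate 1. All 3 genes therefore had overlapping groups.

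IFI44, a cytoplasmic protein gene widely used as an interferon marker, was at 7.90, 12.7 and 12.0 CPM with DMSO and 16.4, 14.3 and 14.2 CPM with blebbistatin. Its treated libraries lay above the DMSO libraries, with scaled means of 10.9 ± 2.15 and 14.8 ± 1.05 CPM (SD, n = 3 each). The log2 difference was 0.44 ± 0.19 (95% interval 0.0041 to 0.88), and 0.28 ± 0.15 without DMSO replicate 1. Its neighbour IFI44L, with no protein-coding gene between them, was at 0.939 to 1.21 CPM with DMSO and 0.908 to 1.19 CPM with blebbistatin, a log2 difference of -0.017 ± 0.29, and 0.13 ± 0.32 without DMSO replicate 1. IFI27, a mitochondrial protein gene, was at 63.8, 146.6 and 201.5 CPM with DMSO and 234.5, 159.4 and 198.8 CPM with blebbistatin. The wide DMSO range of IFI27 spanned most of the treated values, and its log2 difference of 0.62 ± 0.36 was 0.19 ± 0.19 without DMSO replicate 1. CXCL10, a chemokine that draws T cells, was at 0.992, 2.55 and 2.45 CPM with DMSO and 1.29, 1.71 and 1.88 CPM with blebbistatin. It was the gene whose treated libraries lay below the DMSO libraries once replicate 1 was left out, with a log2 difference of -0.60 ± 0.28 (95% interval -1.25 to 0.051), against -0.22 ± 0.38 with it.

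**Figure D5:**
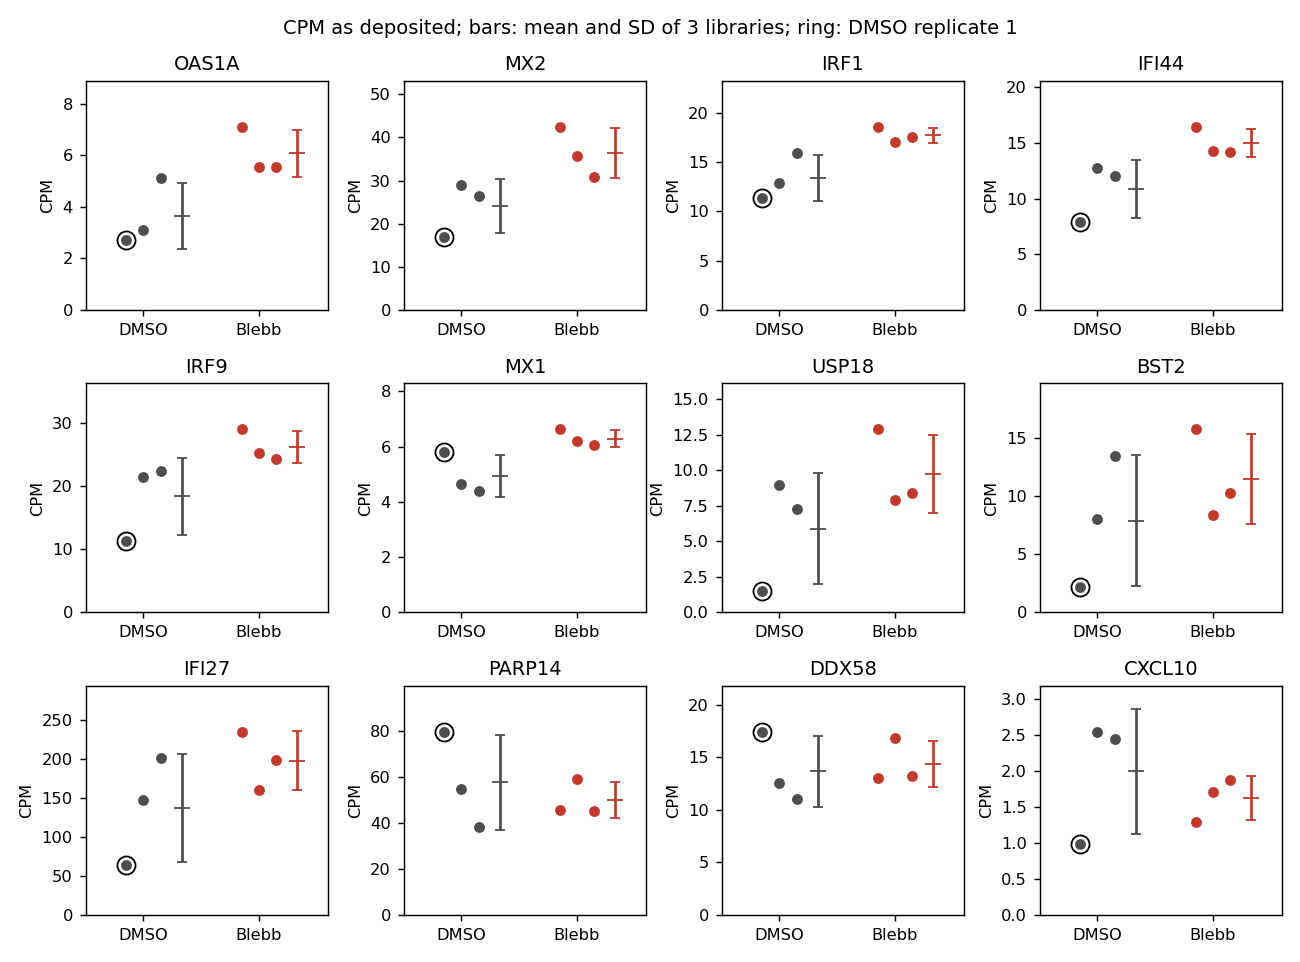
CPM as deposited of 12 interferon response genes in each library, with DMSO replicate 1 marked by a ring. The group means and SDs drawn are of the deposited CPM. OAS1A, MX2, IRF1, IFI44, IRF9 and MX1 have groups that do not overlap in CPM as deposited, while DMSO replicate 1 is far below the other libraries for USP18, BST2 and IFI27 and highest for PARP14 and DDX58.

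Promoter letters and responses were set side by side for the 26 genes with a window. The 17 genes with an ISRE match had a median log2 difference of 0.086, with 11 positive, and the 9 without one had a median of 0.28, with 9 positive. Without DMSO replicate 1 the medians were 0.097 and 0.21, with 11 and 8 positive. Of the 7 genes with a window whose groups separated, 2 (28.6%) held an ISRE match, OAS1A and IFI44. A GAS match was held by 3 of the 7 (42.9%), IRF1, IRF9 and OAS1A. Of the 19 other genes with a window, 15 (78.9%) held an ISRE match and 4 (21.1%) a GAS match. Over all windows the shares were 3.92% and 8.87%. Matches outside the windows were not searched. These are counts over few genes, given as a description.

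The interferons themselves were hardly present. Of 17 ligand and receptor genes found, 6 could be tested, and 10 ligand genes, IFNB1 and IFNG among them, were listed at 0 in all 6 libraries. Limma called none of the 6, counted 0 at an unadjusted p under 0.05 and gave 3 of 6 a positive log2 difference, or 5 of 6 without DMSO replicate 1. IFNAR1 was at 112.7, 84.3 and 72.8 CPM with DMSO and 79.3, 90.5 and 79.9 CPM with blebbistatin, a log2 difference of -0.13 ± 0.21, and IFNAR2 had one of -0.011 ± 0.15. Without DMSO replicate 1, the highest library of IFNAR1, these were 0.089 ± 0.13 and 0.047 ± 0.15. The type II receptor chains IFNGR2 and IFNGR1 were lowest in DMSO replicate 1, with log2 differences of 0.26 ± 0.18 and 0.18 ± 0.14, and of 0.069 ± 0.11 and 0.072 ± 0.11 without it. IL10RB, a chain of the type III receptor, had a log2 difference of 0.11 ± 0.14, and 0.042 ± 0.13 without that library.

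Of 16 JAK-STAT genes and their inhibitors limma called 0, and 3 of 16 were positive, with a median log2 difference of -0.070, or 7 of 16 and -0.029 without DMSO replicate 1. CISH, a feedback inhibitor that cytokines induce through STAT5, was the only one of the 16 counted at an unadjusted p under 0.05. It was at 7.14, 9.81 and 8.75 CPM with DMSO and 12.1, 11.7 and 13.5 CPM with blebbistatin, groups that did not overlap, with a log2 difference of 0.50 ± 0.16 (95% interval 0.12 to 0.88), and 0.42 ± 0.16 without DMSO replicate 1. SOCS3, a related inhibitor, had a log2 difference of 0.475 ± 0.24, and 0.34 ± 0.24 without DMSO replicate 1. The receptor kinases JAK1, TYK2 and JAK2 had log2 differences of -0.087 ± 0.17, -0.042 ± 0.13 and -0.24 ± 0.22. Without DMSO replicate 1, the highest library of JAK1 and JAK2, these were 0.062 ± 0.13, -0.037 ± 0.14 and -0.021 ± 0.16.

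Among 15 tested genes of nucleic acid sensing and relay 0 were called, 0 had an unadjusted p under 0.05 and 8 were positive, with a median log2 difference of 0.021, or 7 and -0.0039 without DMSO replicate 1. The lowest p-values there belonged to the endosomal receptor genes TLR8 (-0.49 ± 0.44) and TLR9 (0.39 ± 0.41) and the adaptor gene TRAF3 (-0.30 ± 0.29). DMSO replicate 1 was highest for TLR8 and TRAF3 and lowest for TLR9. Without it the log2 differences were -0.082 ± 0.36 for TLR8, 0.038 ± 0.15 for TRAF3 and 0.16 ± 0.45 for TLR9. Among 8 other IRF genes 0 were called and 5 were positive, with and without DMSO replicate 1, and IRF2BP2, a co-repressor of IRF2, was counted at an unadjusted p under 0.05. IRF2BP2 was at 35.3, 51.5 and 49.4 CPM with DMSO and 59.8, 60.2 and 71.7 CPM with blebbistatin, a log2 difference of 0.47 ± 0.16, and 0.34 ± 0.12 without DMSO replicate 1. Its groups did not overlap. The related IRF2BPL had a log2 difference of 0.35 ± 0.16, and 0.41 ± 0.15 without DMSO replicate 1, where it too was counted at an unadjusted p under 0.05. IRF4, a lymphoid factor, was highest in DMSO replicate 1, with a log2 difference of -0.85 ± 0.56, and -0.32 ± 0.49 without that library.

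Of a further 50 tested interferon-induced genes most had a positive log2 difference. Limma called 0 of 50, and 38 (76%, against 50.4% of all genes) were positive with a median log2 difference of 0.13. In DMSO replicate 1, 33 of the 50 were lowest, where 43% of all genes were. The groups separated upward for 5 of 50 (10%, against 3.62% of all genes) and downward for 0 (2.48%). Without DMSO replicate 1, 33 were positive (66%, against 49.6% of all genes), with a median of 0.047. The groups then separated upward for 7 (14%, against 6.02%) and downward for 2 (6.15% of all genes). At an unadjusted p under 0.05 limma then counted 2 of the 50 as higher (0.73% of all genes) and 1 as lower (0.848%). With all 6 libraries the log2 differences ran from -1.55 to 1.28. TRIM14, an adaptor of antiviral signalling, was the only one of the 50 counted at an unadjusted p under 0.05 with all 6. It was at 0.265, 0.855 and 0.405 CPM with DMSO and 1.47, 1.53 and 0.957 CPM with blebbistatin, groups that did not overlap, with a log2 difference of 1.28 ± 0.43, and 1.01 ± 0.41 without DMSO replicate 1. OAS1I, a relative of OAS1A, was at 0.496, 2.38 and 2.25 CPM with DMSO and 4.24, 2.97 and 3.405 CPM with blebbistatin, with a log2 difference of 1.22 ± 0.52, and 0.58 ± 0.24 without DMSO replicate 1. EPSTI1, an interferon-induced gene of epithelial and stromal cells, had a log2 difference of 0.87 ± 0.38, and 0.62 ± 0.38 without DMSO replicate 1. Reads of the closely similar OAS1 genes, of MX1 and MX2 and of the IFIT genes may have been divided among copies, so their values are uncertain.

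Among 20 other antigen presentation genes 0 were called and 12 were positive, with a median log2 difference of 0.069, and 8 were positive without DMSO replicate 1, with a median of -0.091. The class II gene RT1-DB1 was counted at an unadjusted p under 0.05: its DMSO values were 0, 0 and 0.211 CPM, and its blebbistatin values 0.534, 0.443 and 0.357 CPM. CIITA, the master regulator of class II genes, and NLRC5, that of class I genes, had log2 differences of 0.81 ± 0.41 and -1.29 ± 0.62, and of 0.99 ± 0.49 and -0.70 ± 0.57 without DMSO replicate 1, the highest library of NLRC5. B2M, the light chain of class I molecules, was at 113.8, 241.9 and 327.6 CPM with DMSO and 317.0, 257.9 and 255.0 CPM with blebbistatin. Its DMSO libraries spanned all treated values, and the log2 difference of 0.36 ± 0.33 was -0.028 ± 0.16 without DMSO replicate 1.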

How the data were processed

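The authors deposited CPM values for 28909 genes in 6 RNA libraries, which sum to the same total in each library. Per the submitters' processing notes, HISAT2 2.1.0, StringTie 1.3.4, edgeR 3.20.9 and the build rn6 were used in the study. The annotation, the counting rule and the strand setting are not given in the sources used here. Most values (about 99.1% of those above 0) fall within 0.02 of a whole multiple of 1 step, 0.0158 to 0.0168 CPM by library, but multiples of 4 steps are over-represented, so a step was not taken as 1 read. The depth in reads is unknown and no counting interval is given.

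Values were divided by a TMM factor (unweighted, trims of 0.3 and 0.05, factors 0.9275 to 1.03), 0.1 CPM was added and log2 was taken, which understates the change of low genes. Limma 3.58.1 under R 4.3.3, with eBayes set to trend and robust, compared the groups, two-sided, over 15204 genes with at least 0.162 CPM (10 steps) in at least 3 libraries. P-values were adjusted by Benjamini-Hochberg over those genes. The fit was also run on simulated counts, in which a step was taken as 1 read. There all genes had the same dispersion and no library stood apart, so that run does not show how the fit behaves on these libraries. Single libraries are given in deposited CPM, and means ± SD are TMM-scaled. A count-based test was not run, since the values are not counts. No pair of libraries was a duplicate. Another 25 gene names are bare numbers and stayed unnamed.

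All 34 genes are named. Of each further pathway list, the 3 tested genes with the lowest p and JAK1, TYK2, IFNAR1, IFNAR2 and B2M are named. The genes, lists and markers were chosen with earlier results of these data known, and they support nothing independently. Promoter windows come from RefSeq in the build GRCr8, and gene neighbours and overlaps from its gene table. Alternatives were other scalings, filters and pseudocounts, eBayes without the robust setting, a replicate block and leaving out each library.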

Additional observations from a re-analysis of the deposited data

How the results depend on the processing

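Limma called 0 of the 34 genes under every alternative tried, and 2 to 6 of all genes, 6 without DMSO replicate 1 or DMSO replicate 3. Other scalings, filters, pseudocounts and eBayes settings kept 26 to 29 genes positive, with a median log2 difference of 0.18 to 0.284. The count of 26 came from the filter of at least 1 CPM in 3 libraries, which left 33 members, without OAS2. Library totals alone, which move the median of all genes to 0.042, turned GBP2 to 0.00933 and IFI44L to 0.0199. Whether the replicate numbers pair the libraries is not known. Deviations from the group means correlated at -0.29, 0.054 and -0.092 between same-numbered libraries. Between libraries of different numbers the highest correlation was 0.38, for DMSO replicate 3 with blebbistatin replicate 1. The lowest was -0.29, for DMSO replicate 3 with blebbistatin replicate 2. With 3 libraries per group, 1 of them standing apart, these values cannot settle it. With a replicate block, the count at an unadjusted p under 0.05 was 0 instead of 4. Leaving out 1 library at a time gave 3 to 6 genes called in the table, 23 to 29 members positive and a median of 0.13 (without DMSO replicate 1) to 0.339 (without blebbistatin replicate 3). The count at an unadjusted p under 0.05 ranged from 0 to 8: it was 0 without blebbistatin replicate 1, 1 without blebbistatin replicate 2, 2 without DMSO replicate 2 or blebbistatin replicate 3, 3 without DMSO replicate 1 and 8 without DMSO replicate 3. The log2 difference changed sign for 12 genes, with ranges of -0.118 to 0.28 for DDX58, -0.0918 to 0.126 for EIF2AK2, -0.0671 to 0.596 for IRF3, -0.0665 to 0.611 for OASL, -0.371 to 0.551 for IFIT3, -0.365 to 0.156 for ISG20, -0.152 to 0.0385 for GBP2, -0.19 to 0.514 for ISG15, -0.00249 to 0.391 for HERC6, -0.482 to 0.113 for PARP14, -0.166 to 0.246 for PSMB8 and -0.117 to 0.134 for IFI44L. The cause was not tested. The depth in reads is unknown, and 3 libraries per group limit the precision.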
